A study of Mus musculus with 4 samples.

Results

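Antioxidant and NRF2 target genes were followed in mouse islets of Langerhans held at low or high glucose. The set holds 10 genes: Nfe2l2, Nqo1, Hmox1, Gclc, Gclm, Srxn1, Txnrd1, Sod1, Sod2 and Cat. They were found by gene symbol among the 24012 genes of the deposited expression table, and where a symbol had several entries the one with the highest mean over the 4 libraries was kept. The 10 genes have 13 entries, since Txnrd1 has 4 and each of the others has 1. The rule picks genes by name and uses measured values only to choose among entries of 1 gene, here Txnrd1. The names were picked with earlier results of these data known.

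Islets came from wild type male C57bl6 mice of 3 months of age, were combined into 1 pool, and were kept overnight at 11 mM glucose and then for 2 h at 2.8 mM glucose. The low glucose group then stayed at 2.8 mM and the high glucose group was moved to 16.8 mM glucose, both for 12 h by the series description, whereas the labels of single samples state 2 h at 2.8 mM against 12 h at 16.8 mM. The comparison asks how gene expression in islets responds to stimulatory glucose, and if the labels are right, time and glucose cannot be told apart in it. Each group has 2 libraries of total RNA from whole islets of mixed cell types, so p-values measure only the spread between libraries of 1 pool, which may be technical. In such bulk samples fewer cells of a type and less RNA per cell cannot be told apart.

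NRF2, the protein made from Nfe2l2, is a transcription factor that is kept low by KEAP1 and accumulates when reactive electrophiles or oxidants modify KEAP1. Paired with a small MAF protein, it binds antioxidant response elements in front of genes for glutathione synthesis, thioredoxin and quinone chemistry and haem breakdown, where BACH1 competes with it as a repressor. Superoxide dismutases turn superoxide into hydrogen peroxide, which catalase, glutathione peroxidases and peroxiredoxins remove, and pancreatic beta cells are known for low catalase and glutathione peroxidase.

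Srxn1 was the only member whose change passed the test, and the bases before its start site are therefore shown. The RefSeq promoter table, on build GRCm38.p6, reaches from 250 bases before to 50 bases after each gene's start, and 8 of the 10 members have an entry. Srxn1 lies on the plus strand, and the 250 bases before its start, chr2:152105274-152105523, read as follows, 5′ to 3′ on the gene strand, with matches to TGANTCA in capitals. TGANTCA, searched on both strands, is the palindromic core that AP-1 factors bind and that also forms the first part of some antioxidant response elements.
Srxn1: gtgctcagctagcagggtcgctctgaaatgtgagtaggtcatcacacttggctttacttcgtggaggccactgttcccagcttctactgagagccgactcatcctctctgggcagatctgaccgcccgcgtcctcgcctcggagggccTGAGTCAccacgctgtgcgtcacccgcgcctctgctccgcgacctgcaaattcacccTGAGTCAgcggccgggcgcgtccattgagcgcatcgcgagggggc

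The matches begin at -102 and -45 from the start site of Srxn1, and 7.81% of the 32851 promoters in the table hold at least 1 TGANTCA. The shorter antioxidant response element core TGACNNNGC, also searched on both strands, occurs in 12.4% of those promoters and in 5 of the 8 members with an entry. The percentage counts windows and the members are counted as genes, so Txnrd1, with several windows, counts if any of them matches. The windows below show 4 of these matches in capitals, so that members with large and small differences can be set side by side. Positions are counted from the start site to the first capital base, on the gene strand. For Nfe2l2 the match lies at -240 in chr2:75704614-75704913 (minus strand), for Gclm at -134 in chr3:122245307-122245606 (plus), for Txnrd1 at -92 in chr10:82858956-82859255 (plus) and for Sod1 at -56 in chr16:90220512-90220811 (plus).
Nfe2l2: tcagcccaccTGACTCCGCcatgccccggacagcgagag
Gclm: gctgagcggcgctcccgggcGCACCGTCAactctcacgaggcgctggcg
Txnrd1: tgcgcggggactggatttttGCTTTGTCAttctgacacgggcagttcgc
Sod1: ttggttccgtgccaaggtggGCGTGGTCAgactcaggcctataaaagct

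The fifth match is in Srxn1 itself, at 29 after the start, as GCTAGGTCA. In Gclm, Txnrd1, Sod1 and Srxn1 the letters TGACNNNGC read on the strand opposite to the gene, which is why the capitals show their reverse complement, and in Nfe2l2 they read on the gene strand. Txnrd1 has 3 start sites in the table and only the second holds the core. The spacing of these starts matches the spans of the 3 distinct Txnrd1 entries. By this spacing the entry kept here begins at the third start, whose window lacks the core. The Txnrd1 window shown above belongs to another entry, which starts further upstream. Nqo1, Sod2 and Cat have no match to either motif in these windows, which says only that these letters are not there. Hmox1 and Gclc were not in the table. These matches describe sequence and were not compared with binding.

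Expression was measured as RPKM, reads per kilobase of gene model, scaled to the number of reads in the library. The values step in whole reads when length is taken as the whole genomic span, with introns (77.8 to 80.8% of low values whole within 0.05 reads, against 11.4 to 12.2% by exon length), so long genes with small exons have low RPKM here and a gene's value can hold reads from its introns. From these steps the depth came to 58300000 and 51800000 reads for the libraries at 2.8 mM and to 60500000 and 50700000 for those at 16.8 mM. A member had between 414 and 19051 reconstructed reads in a library, so that with 2 libraries a group their number, more than depth, limits the precision.

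Limma was run on log2(RPKM + 0.5) over every transcript whose mean reached 1 RPKM, a scale that understates changes of low values. Of 7867 transcripts tested, 2628 passed at a Benjamini-Hochberg adjusted p of 0.05, which is 33.4% of them, with 838 (10.7%) higher and 1790 (22.8%) lower at 16.8 mM glucose. Over all transcripts the log2 fold change had a median of -0.11. Of the calls, 31.9% were higher, against 42.3% after quantile normalization and 44.1% after median centring of the libraries, settings in which 20% and 21.1% of transcripts were called higher. Without the first 2.8 mM library 1221 and without the second 16.8 mM library 1059 transcripts were lower at 16.8 mM, against 904 and 766 higher. Values of replicate 1 lay above those of replicate 2 in 84.5% of transcripts tested at 2.8 mM and in 85.6% at 16.8 mM, and in 9 and 10 of the 10 members.

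Of the 10 antioxidant genes, 8 reached the minimum for the test and 1 of these, Srxn1, rose with glucose, beside 10.7% of all transcripts called higher. None of the 8 was called lower, beside 22.8% of all transcripts. At an unadjusted p under 0.05 limma gave 2 of these 8, Srxn1 and Txnrd1, both higher, and 0 lower. All transcripts called also pass this looser threshold, so it holds at least 33.4% of all transcripts, 10.7% higher and 22.8% lower. The full share at this threshold was not counted. Voom on reconstructed reads, which tested all 10, called 2 higher (the same genes, beside 13.5% of 17463 transcripts) and Cat lower (beside 28.7%). Cat, whose mean differed by -45.7% at 16.8 mM, was not among the 8 tested. The median log2 fold change of the 8 was -0.03 and their median absolute change was 0.14, against 0.23 over all transcripts, and 6 of the 8 lay within 0.2 of 0. Both 16.8 mM libraries lay above both 2.8 mM libraries for Gclc, Srxn1 and Txnrd1 and below them for Nfe2l2, Sod2 and Cat, that is for 6 of 10 genes, while 70.4% of transcripts tested did not overlap between groups (22.2% above and 48.3% below). The count of 10 includes Cat and Nqo1, which were not tested, while the share covers only transcripts tested, with several entries for some genes. With 2 libraries against 2, an exact permutation test of a single gene cannot give a two-sided p below 0.333.

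**Figure D1:**
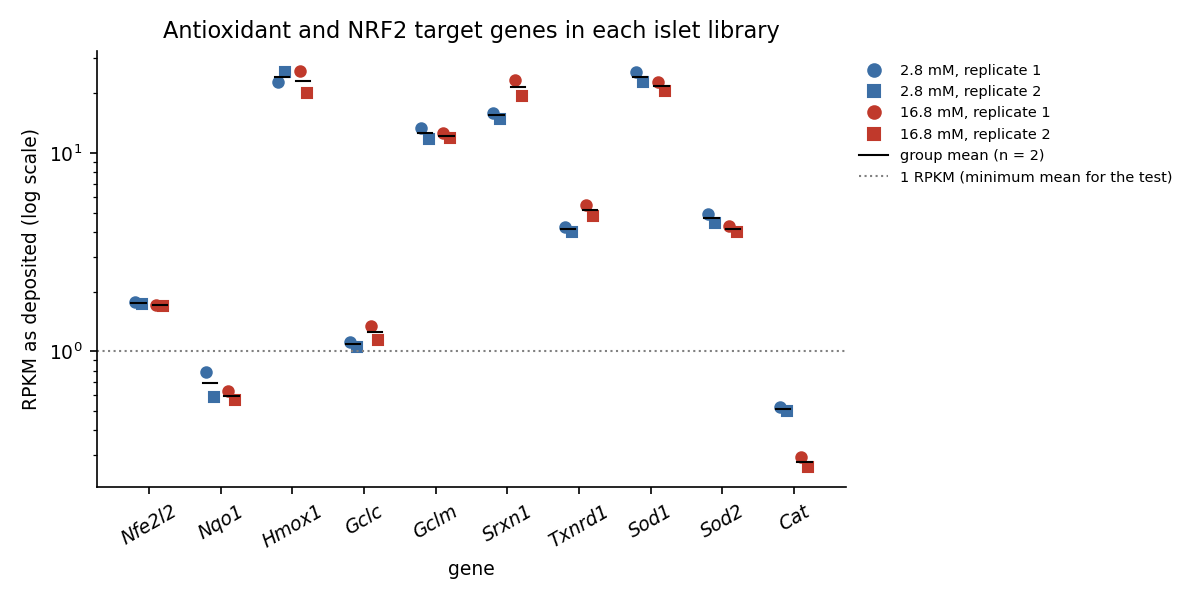
RPKM as deposited (log scale) of the 10 genes in each of the 4 libraries, with 2.8 mM glucose in blue, 16.8 mM in red, circles for replicate 1, squares for replicate 2 and bars for group means (n = 2). Srxn1 goes from 16.0 and 14.9 RPKM at 2.8 mM to 23.4 and 19.4 RPKM at 16.8 mM, Cat lies under the dotted line at 1 RPKM in all libraries, and Nfe2l2 stays between 1.70 and 1.77 RPKM.

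Nfe2l2 (NM_10902) encodes NRF2 itself and is on chromosome 2 from 75513570 to 75542698, minus strand, with 5 exons. All gene positions here are on NCBI build 37, and transcript identifiers are spelled as the table gives them. It measured 1.77 and 1.74 RPKM at 2.8 mM glucose and 1.71 and 1.70 RPKM at 16.8 mM. The 4 libraries nearly coincide, with the 16.8 mM pair just below. Its log2 fold change was -0.03 ± 0.08 (SE), with a 95% interval from -0.22 to 0.15 and a limma adjusted p of 0.780, and the reconstructed reads per library were between 2509 and 3019. Its spread was small, at 1.75 ± 0.0228 RPKM and 1.71 ± 0.0103 RPKM (SD, n = 2), and limma widens such a spread towards that of transcripts of like level. The sign of this small difference turned under centring and under quantile normalization, where the gene was not called either.

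The thioredoxin arm held the largest positive differences among the members tested. Srxn1 (NM_29688) encodes sulfiredoxin, which repairs over-oxidised peroxiredoxins, and is on chromosome 2 (151931260 to 151937112, plus strand) with 2 exons. It measured 16.0 and 14.9 RPKM at 2.8 mM glucose, from 5451 and 4517 reads, and 23.4 and 19.4 RPKM at 16.8 mM, from 8276 and 5757 reads. Both high glucose libraries lay above both low glucose libraries, and the first of them stood highest. The mean went from 15.4 ± 0.761 to 21.4 ± 2.81 RPKM (SD, n = 2), a rise of 38.6%, with a log2 fold change of 0.45 ± 0.14 (SE), a 95% interval from 0.13 to 0.78 and a limma adjusted p of 0.0418. Against the median of all transcripts its log2 change was 0.56. The call rests on both high glucose libraries: the log2 change was 0.32 (adjusted p = 0.252) without the first 16.8 mM library and 0.58 (adjusted p = 0.0552) without the second. With no minimum RPKM, which raises the number of transcripts tested to 26272, it was not called either (adjusted p = 0.0988), and over the 13 alternatives the adjusted p ranged from 0.00148 to 0.252.

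Txnrd1 (NM_1042514) encodes the cytosolic thioredoxin reductase, a selenoenzyme that keeps thioredoxin reduced with NADPH, and is on chromosome 10 (82323086 to 82360469, plus strand) with 14 exons. It measured 4.25 and 4.0005 RPKM at 2.8 mM and 5.47 and 4.82 RPKM at 16.8 mM glucose. The groups do not overlap, and the high glucose mean of 5.15 ± 0.462 RPKM was 24.8% above the low glucose mean of 4.13 ± 0.177 RPKM (SD, n = 2). Its log2 fold change of 0.29 ± 0.11 (SE, 95% interval from 0.03 to 0.54) missed the threshold over all transcripts, at a limma adjusted p of 0.0774. It was called under quantile normalization (adjusted p = 0.0094), under centring (adjusted p = 0.0080) and by voom on reconstructed reads (adjusted p = 0.0126). For voom the reads of this entry were rebuilt from the longest span of the gene, 63.8 kb. They therefore exceed the reads given below, which use each entry's own span. Another 2 distinct entries of Txnrd1, which start further upstream and cover the span of the first, gave log2 fold changes of 0.29 and 0.26 with adjusted p of 0.0751 and 0.0770. The 3 nested entries held 9265, 9343 and 9504 reads in the first 2.8 mM library, so nearly all reads lie in the part they share and the entries are not separate evidence.

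Glutathione synthesis is set by glutamate-cysteine ligase, whose catalytic subunit is Gclc and whose modifier subunit is Gclm. Gclc (NM_10295) is on chromosome 9 (77602342 to 77642292, plus strand) with 16 exons and measured 1.11 and 1.06 RPKM at 2.8 mM and 1.35 and 1.14 RPKM at 16.8 mM glucose. Its groups do not overlap, though the lower high glucose library stands close to the low glucose pair. The log2 fold change was 0.14 ± 0.09 (SE), with a 95% interval from -0.07 to 0.34 and a limma adjusted p of 0.259. It was called under quantile normalization (adjusted p = 0.0222) and under centring (adjusted p = 0.0248).

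Gclm (NM_8129) is on chromosome 3 (121948475 to 121972902, plus strand) with 7 exons and measured 13.4 and 11.7 RPKM at 2.8 mM and 12.6 and 11.9 RPKM at 16.8 mM glucose. The groups overlap, with both high glucose libraries inside the low glucose range. Its log2 fold change was -0.03 ± 0.12 (SE), with a 95% interval from -0.32 to 0.26 and a limma adjusted p of 0.850. A lincRNA gene, Gm17494, overlaps it on the opposite strand over 14027 bases, and counting by strand is not stated, so its reads cannot be kept apart from those of Gclm. Within a library the ratio of Gclm to Gclc RPKM was 12.0 and 11.1 at 2.8 mM and 9.31 and 10.4 at 16.8 mM, so that both high glucose libraries lay below both low glucose libraries.

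Quinone and haem chemistry was represented by Nqo1 and Hmox1. Nqo1 (NM_8706), the NADPH quinone oxidoreductase that is a standard readout of NRF2, is on chromosome 8 (109912125 to 109927106, minus strand) with 6 exons and had a mean under 1 RPKM, so it was not tested. It measured 0.791 and 0.590 RPKM at 2.8 mM and 0.631 and 0.566 RPKM at 16.8 mM glucose, from 430 to 691 reads a library. The groups overlap, and the exact two-sided permutation p was 0.667. Its mean was 0.691 ± 0.143 RPKM at 2.8 mM and 0.599 ± 0.0458 RPKM at 16.8 mM (SD, n = 2), a difference smaller than the spread at 2.8 mM.

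Hmox1 (NM_10442), the inducible haem oxygenase, is on chromosome 8 (77617490 to 77624495, plus strand) with 5 exons and measured 22.7 and 25.5 RPKM at 2.8 mM and 26.0 and 20.1 RPKM at 16.8 mM glucose. Here the highest and the lowest library are both at high glucose, so the groups overlap. The log2 fold change was -0.07 ± 0.16 (SE), the largest SE among the members tested, with a 95% interval from -0.45 to 0.30 and a limma adjusted p of 0.751. Leaving out single libraries moved it from -0.25 to 0.11 without a call.

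The superoxide dismutases showed small differences below 0. Sod1 (NM_11434), the cytosolic copper and zinc enzyme, is on chromosome 16 (90220987 to 90226567, plus strand) with 5 exons and measured 25.6 and 22.6 RPKM at 2.8 mM and 22.8 and 20.4 RPKM at 16.8 mM glucose. Its groups overlap by a narrow margin. The log2 fold change was -0.15 ± 0.13 (SE), with a 95% interval from -0.47 to 0.16 and a limma adjusted p of 0.405. Sod2 (NM_13671), the mitochondrial manganese enzyme, is on chromosome 17 (13200705 to 13210985, plus strand) with 5 exons and measured 4.92 and 4.43 RPKM at 2.8 mM and 4.26 and 3.99 RPKM at 16.8 mM glucose. Both high glucose libraries lay below the low glucose pair. The log2 fold change was -0.16 ± 0.10 (SE), with a 95% interval from -0.40 to 0.08 and a limma adjusted p of 0.254. Against the median of all transcripts the log2 changes of Sod1 and Sod2 were -0.04 and -0.05.

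Cat (NM_9804), the catalase that breaks down hydrogen peroxide in peroxisomes, is on chromosome 2 (103294006 to 103325317, minus strand) with 13 exons. It measured 0.522 and 0.502 RPKM at 2.8 mM glucose, from 952 and 814 reads, and 0.295 and 0.261 RPKM at 16.8 mM, from 559 and 414 reads. Both high glucose libraries lay well below the low glucose pair, whose spread is small. The mean was 0.512 ± 0.0139 RPKM at 2.8 mM and 0.278 ± 0.0243 RPKM at 16.8 mM (SD, n = 2), a difference of -45.7%. Its span is 31.3 kb, and with a mean under 1 RPKM it was not tested. With no minimum RPKM its log2 fold change was -0.38 ± 0.04 (SE) at a limma adjusted p of 0.0304, where 9.52% of 26272 transcripts were called lower. By voom on reconstructed reads, a scale with no added 0.5 RPKM, it was -0.88 ± 0.13 (SE) at an adjusted p of 4.3e-05, where 28.7% of 17463 transcripts were called lower. The exact two-sided permutation p was 0.333, the smallest that 2 libraries against 2 allow.

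**Figure D2:**
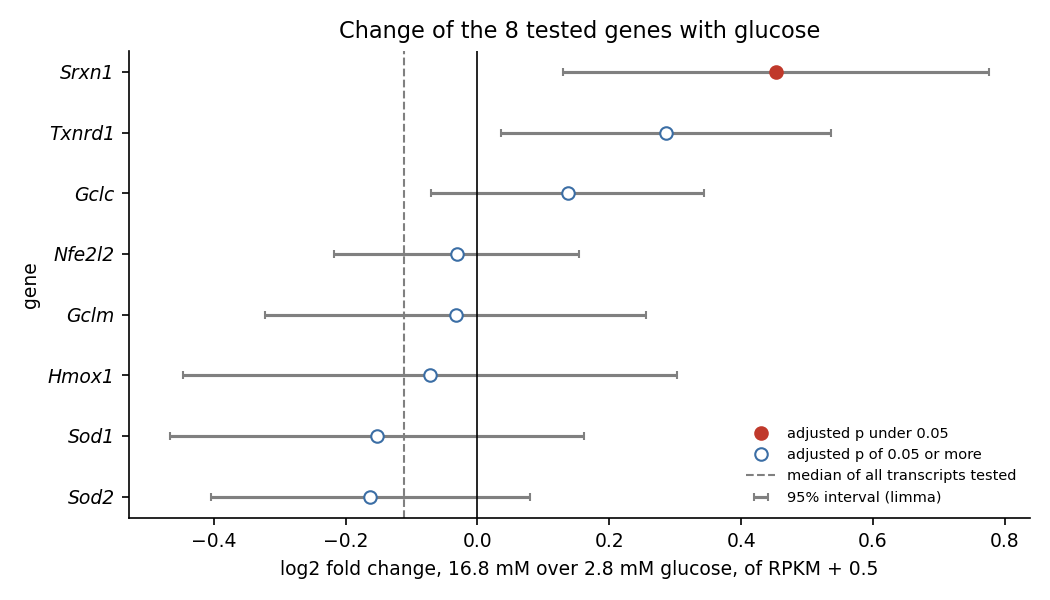
Log2 fold change of RPKM + 0.5 at 16.8 mM over 2.8 mM glucose for the 8 genes tested, with limma 95% intervals; filled points have an adjusted p under 0.05 and the dashed line is the median of all transcripts tested, -0.11. Srxn1, at 0.45, is the filled point, the interval of Txnrd1 starts at 0.03, and the other 6 intervals span 0.

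To compare levels between genes, RPKM was rescaled from genomic span to exon length, on the assumption that all reads fell in exons. On this exon-scaled RPKM the order at 2.8 mM glucose began with Sod1 at 208 ± 17.9, Hmox1 at 105 ± 8.78, Gclm at 63.3 ± 5.99 and Txnrd1 at 44.0 ± 1.89 (SD, n = 2). Srxn1 at 32.1 ± 1.58, Nfe2l2 at 20.6 ± 0.269 and Gclc at 12.7 ± 0.471 came next. The lowest were Sod2 at 12.6 ± 0.929, Nqo1 at 6.66 ± 1.38 and Cat at 6.13 ± 0.167. The cytosolic dismutase thus stood above the other 9 members, and catalase was last. Over all 4 libraries Txnrd1 (42.7 to 58.4) overlapped Srxn1 (31.0 to 48.6), Gclc (12.3 to 15.8) overlapped Sod2 (10.7 to 13.2) and Nqo1 (5.46 to 7.63) overlapped Cat (3.13 to 6.25), and the other neighbours in this order did not overlap. Gclm, lowest at 59.0, cleared Txnrd1 by a narrow margin only, and its value may hold reads of Gm17494. At 16.8 mM glucose exon-scaled RPKM was 187 ± 14.8 for Sod1, 44.5 ± 5.84 for Srxn1 and 3.33 ± 0.291 for Cat.

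Ratios of deposited RPKM within a library do not depend on how libraries were scaled, and show how members moved against each other. The ratio of Srxn1 to Sod1 was 0.625 and 0.658 at 2.8 mM and 1.02 and 0.951 at 16.8 mM glucose, so its mean was 1.54 times higher at high glucose. The ratio of Txnrd1 to Sod1 was 0.166 and 0.177 against 0.240 and 0.236, and that of Srxn1 to Gclm 1.19 and 1.27 against 1.86 and 1.63. Sulfiredoxin and thioredoxin reductase thus lay higher, relative to the dismutase, in both high glucose libraries. The ratio of Cat to Sod1 went the other way, from 0.0204 and 0.0222 to 0.0129 and 0.0128, and that of Cat to Sod2 from 0.106 and 0.113 to 0.0693 and 0.0654. The ratio of Sod1 to Sod2 was 5.19 and 5.10 against 5.36 and 5.12, with groups that overlap. These ratios are unequal changes and do not say which partner moved. They were picked after values were seen and were not tested.

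**Figure D3:**
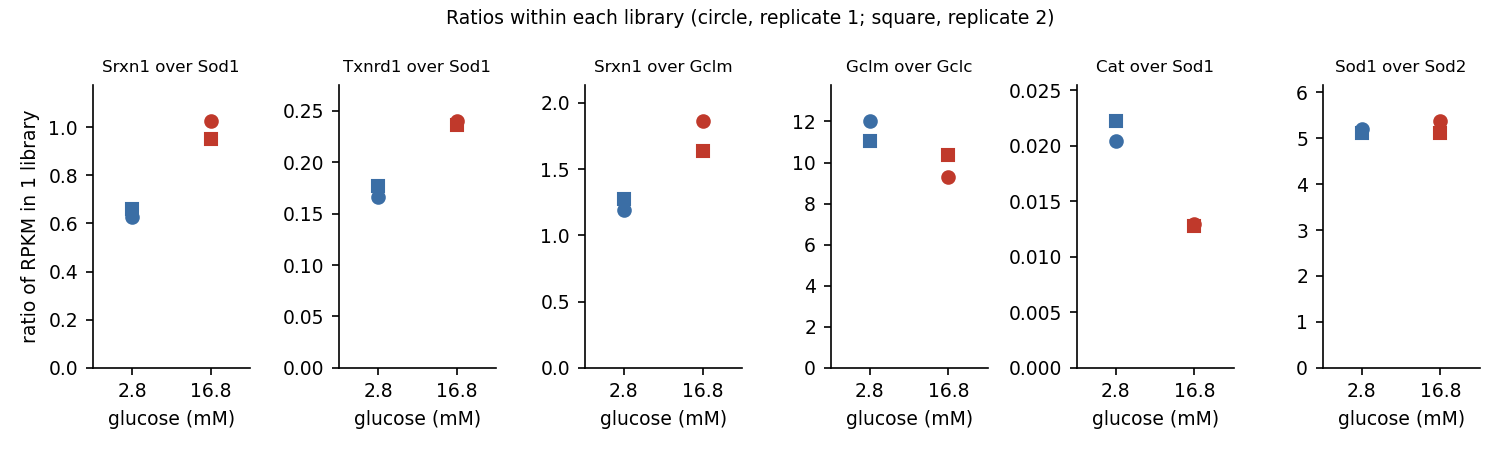
Ratio of RPKM of 2 genes within each library against glucose (mM), each panel from 0, with circles for replicate 1 and squares for replicate 2. Srxn1 over Sod1, Txnrd1 over Sod1 and Srxn1 over Gclm lie higher at 16.8 mM, Gclm over Gclc and Cat over Sod1 lie lower, and Sod1 over Sod2 overlaps between 5.10 and 5.36.

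Other genes of the pathway were read from 6 lists of 123 genes, of which 122 are in the table and 72 were tested. Of these 72, 11 rose, 16 fell and 45 did not pass, with a median log2 fold change of -0.07, beside 10.7% and 22.8% of all transcripts. After centring 22 rose and 19 fell, and after quantile normalization 19 and 19. Single libraries moved these counts: 5 rose without the second 2.8 mM library, 7 rose without the first 16.8 mM library, and 10 fell without the first 2.8 mM library. Of the 27 genes called, 12 were called the same way in every alternative that tested them: Nfe2l1, Maff, Sqstm1, Gstm1, Txn1, Gpx2, Gsto1, Gstt1, Txnip, Idh2, Ucp2 and Mt2. Another 12 lost the call without 1 library. These were Bach1, G6pdx, Glrx3, Txndc17, Sephs2, Nadk and Hmox2 without the first 2.8 mM library (adjusted p from 0.0517 to 0.189) and G6pdx, Pgd, Glrx, Glrx3, Prdx4, Sepp1 and Tfrc without the second (0.0516 to 0.137). Without the first 16.8 mM library they were G6pdx, Prdx4, Txndc17, Sepp1, Sephs2 and Tfrc (0.0625 to 0.204), and without the second Glrx3, Txndc17, Sepp1, Sephs2 and Nadk (0.0731 to 0.223). Prdx4 and Hmox2 are outside the rule for naming genes and are named here to complete these groups.

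Among NRF2 regulators, 12 of 17 were tested, and 1 rose and 3 fell, with a median log2 fold change of -0.10. Maff, a small MAF partner, was 1.29 and 1.17 RPKM at 2.8 mM and 2.67 and 2.09 RPKM at 16.8 mM glucose, higher in both high glucose libraries (log2 fold change 0.73 ± 0.11, SE; limma adjusted p = 0.0041). Nfe2l1, the NRF2-related factor that controls proteasome genes, fell from 51.2 and 45.2 RPKM to 24.3 and 24.3 RPKM (log2 fold change -0.97 ± 0.13; adjusted p = 0.0024). Sqstm1, the autophagy receptor p62 that binds KEAP1, fell from 85.4 and 80.9 RPKM to 50.5 and 43.1 RPKM (-0.83 ± 0.14; adjusted p = 0.0057). Bach1, the repressor at antioxidant response elements, fell from 1.42 and 1.36 RPKM to 1.02 and 0.980 RPKM (-0.33 ± 0.08; adjusted p = 0.0157).

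KEAP1's own gene and the other small MAF genes did not pass. Keap1 was 5.32 and 4.61 RPKM at 2.8 mM and 6.04 and 5.09 RPKM at 16.8 mM, which overlap, with a log2 fold change of 0.15 (95% interval from -0.14 to 0.44; limma adjusted p = 0.382). Mafg had a log2 fold change of -0.24 (interval from -0.50 to 0.02; adjusted p = 0.127) and Mafk of -0.08 (interval from -0.32 to 0.16; adjusted p = 0.579). Keap1 and Mafk each overlap a gene on the opposite strand, and Mafg overlaps one on its own.

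Of 36 other NRF2 targets 18 were tested, and 3 rose and 3 fell, with a median log2 fold change of -0.04. Txn1, the cytosolic thioredoxin that TXNRD1 reduces, rose from 2.72 and 2.52 RPKM to 3.82 and 3.80 RPKM (log2 fold change 0.47 ± 0.09, SE; limma adjusted p = 0.0094). Pgd and G6pdx, the pentose phosphate dehydrogenases that make NADPH, rose by 0.43 ± 0.10 (adjusted p = 0.0188) and 0.32 ± 0.08 (adjusted p = 0.0271) on the log2 scale. G6pdx overlaps Ikbkg on the opposite strand over 19712 bases, and Ikbkg had a log2 fold change of -0.11. The glutathione transferases Gstm1 and Gstm3 fell, by 1.04 ± 0.14 (adjusted p = 0.0022) and 0.58 ± 0.10 (adjusted p = 0.0068) on the log2 scale, as did the ferritin light chain gene Ftl1, by 0.75 ± 0.13 (adjusted p = 0.0061). Gstm and Ftl1 have near-identical copies in the genome, so their reads may be split between copies.

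Another 3 partners of the members in these reactions were not called or not tested. Slc7a11, the cystine importer that feeds glutathione synthesis, was under the minimum, at 0.382 and 0.339 RPKM at 2.8 mM and 0.550 and 0.541 RPKM at 16.8 mM glucose, with both high glucose libraries above. Gsr, glutathione reductase, was 1.16 and 1.17 RPKM against 1.06 and 1.02 RPKM (log2 fold change -0.11, 95% interval from -0.28 to 0.07; limma adjusted p = 0.285). Prdx1, a peroxiredoxin that sulfiredoxin repairs, was 10.03 and 8.30 RPKM against 11.4 and 10.7 RPKM (0.27, interval from -0.04 to 0.57; adjusted p = 0.148).

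Of 27 genes of glutathione synthesis and use, 16 were tested, and 2 rose and 3 fell, with a median log2 fold change of -0.15. Gpx2, a glutathione peroxidase, rose from 8.64 and 7.54 RPKM to 13.7 and 14.1 RPKM (log2 fold change 0.75 ± 0.12, SE; limma adjusted p = 0.0045), and Glrx, a glutaredoxin, rose by 0.48 ± 0.11 (adjusted p = 0.0149). Gsto1 had the largest fall among the 72 genes, from 5.75 and 5.29 RPKM to 1.91 and 1.87 RPKM (-1.33 ± 0.09; adjusted p = 0.00024). Gstt1 (-0.58 ± 0.09; adjusted p = 0.0049) and Glrx3 (-0.29 ± 0.08; adjusted p = 0.0296) fell too. Gpx1, the main cytosolic glutathione peroxidase, had overlapping groups and a log2 fold change of 0.13 (95% interval from -0.20 to 0.46; adjusted p = 0.514).

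Of 20 thioredoxin and peroxiredoxin genes 15 were tested, and 4 rose and 2 fell, with a median log2 fold change of 0.22. Txnip, the thioredoxin-binding protein known to respond to glucose in beta cells, rose from 7.73 and 7.20 RPKM to 30.5 and 29.1 RPKM (log2 fold change 1.93 ± 0.12, SE; limma adjusted p = 0.00014). Gm15441 overlaps Txnip on the opposite strand over 3927 bases and had a log2 fold change of 1.81, so their reads cannot be told apart. Sepp1, a secreted selenium carrier, rose by 0.44 ± 0.13 (adjusted p = 0.0395) on the log2 scale. Sephs2, which makes selenophosphate, and Txndc17, a thioredoxin-like protein, fell by 0.41 ± 0.12 (adjusted p = 0.0366) and 0.37 ± 0.12 (adjusted p = 0.0482).

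Of 17 superoxide and NADPH genes 7 were tested, and 3 rose and 2 fell, with a median log2 fold change of 0.18. Beside Pgd and G6pdx, the mitochondrial uncoupling protein gene Ucp2 rose from 8.28 and 7.11 RPKM to 12.8 and 12.2 RPKM (log2 fold change 0.67 ± 0.12, SE; limma adjusted p = 0.0072). Idh2, the NADPH-producing isocitrate dehydrogenase of mitochondria, fell from 6.54 and 6.48 RPKM to 2.81 and 2.86 RPKM (-1.07 ± 0.09; adjusted p = 0.00054), and Nadk, an NAD kinase, fell by 0.36 ± 0.09 (adjusted p = 0.0217). NADPH producers thus appear on both sides.

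Of 15 genes of haem, iron and metal handling 12 were tested, and 1 rose and 4 fell, with a median log2 fold change of -0.19. Tfrc, the transferrin receptor, rose by 0.42 ± 0.12 (SE, log2 scale; limma adjusted p = 0.0362). The metallothioneins fell, Mt2 from 708 and 824 RPKM to 344 and 308 RPKM (-1.23 ± 0.14; adjusted p = 0.0013) and Mt1 from 513 and 592 RPKM to 343 and 313 RPKM (-0.75 ± 0.14; adjusted p = 0.0073). Mt1 and Mt2 are similar in sequence, so some reads may be shared. Mt1 was not called after quantile normalization, and Mt1, Ftl1 and Gstm3 were not called with no minimum RPKM.

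**Figure D4:**
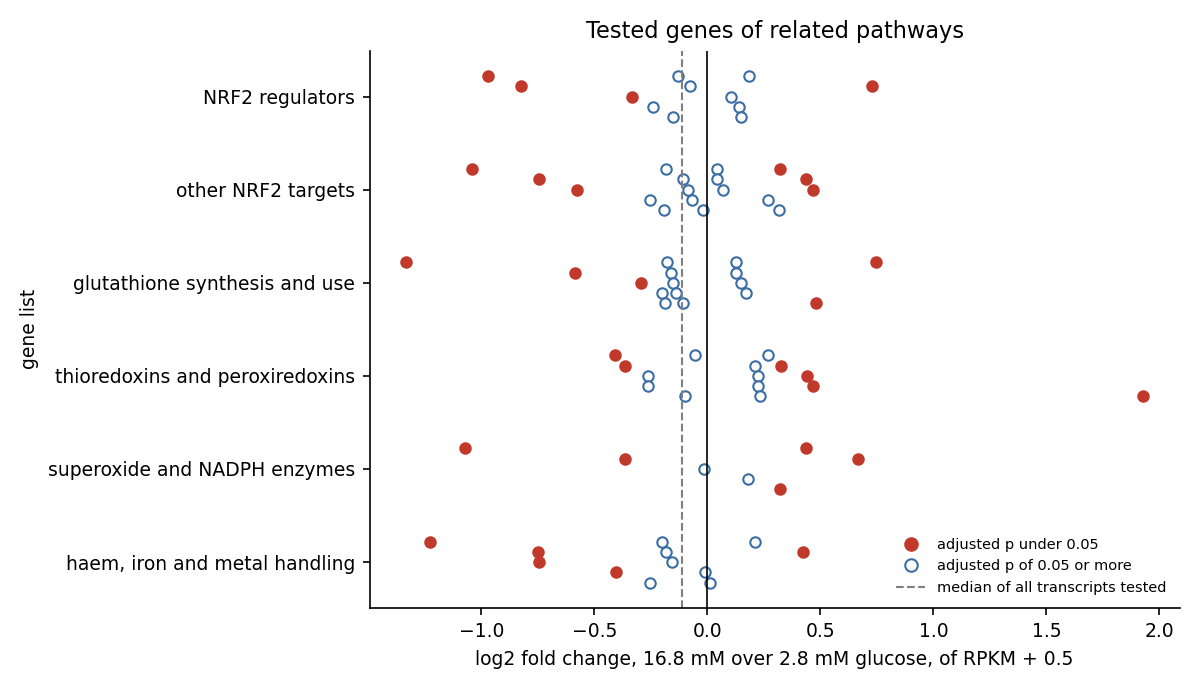
Log2 fold change of RPKM + 0.5 at 16.8 mM over 2.8 mM glucose for the tested genes of each of the 6 lists, with filled points at an adjusted p under 0.05 and the dashed line at the median of all transcripts, -0.11; genes in 2 lists appear in both. Called genes lie on both sides of 0 in every list, from Gsto1 at -1.33 to Txnip at 1.93.

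Markers of cell types moved with glucose and with replicate number. The summed RPKM of 6 beta cell markers was 21284 and 19048 at 2.8 mM and 40846 and 37879 at 16.8 mM glucose, and 5 of the 6 rose (Mafa, Ins1, Pdx1, Ins2 and Ucn3). Ins1 and Ins2 made up nearly all of each sum, with 3113 and 18136 RPKM in the first 2.8 mM library. In the first 16.8 mM library they had 10735 and 30018 RPKM, so the sum mainly follows insulin RNA. The 8 acinar markers summed to 82.7 and 239 RPKM at 2.8 mM and to 202 and 428 RPKM at 16.8 mM, higher in replicate 2 of each group, with a median log2 fold change of 1.04. By limma 0 of these 8 were called, 4 were higher at an unadjusted p under 0.05, and voom on reconstructed reads called all 8 higher. Alpha cell marker sums were 2172, 1665, 2114 and 1486 RPKM, and those of delta cells 589, 441, 693 and 687 RPKM. Gcg made up nearly all of the alpha cell sums and Sst nearly all of the delta cell sums. By limma 0 of 4 alpha and 0 of 2 delta cell markers were called, against 1 alpha marker lower and 1 delta marker higher both at an unadjusted p under 0.05 and by voom. Of the macrophage and leukocyte markers Cd14 was the only 1 of 3 tested that rose (sums 10.9 to 16.2 RPKM). Of 3 duct markers tested Spp1 rose and Krt7 fell (35.5 to 46.9 RPKM). Endothelial, stromal and erythroid marker sums lay between 0.159 and 4.08 RPKM. None of the 5 endothelial markers reached the minimum for limma, and voom on reconstructed reads called 2 of them higher, Pecam1 and Cdh5. Kdr, Plvap and Emcn had groups that overlap, and by voom 1 endothelial marker was lower at an unadjusted p under 0.05 without a call. The part of these shifts in the values of Srxn1, Cat and the other members was not tested.

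**Figure D5:**
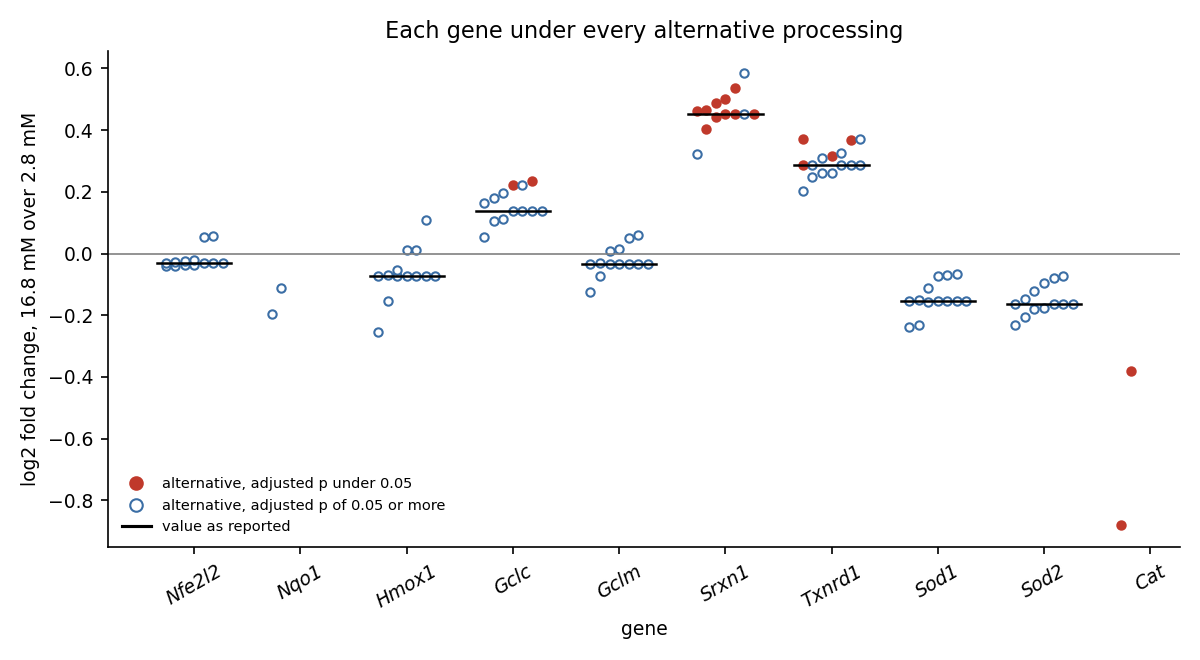
Log2 fold change of each gene at 16.8 mM over 2.8 mM glucose under the alternative ways of processing, with filled points at an adjusted p under 0.05 and black bars for the values as reported. Srxn1 lies between 0.32 and 0.58 and is filled in 10 of 13, Txnrd1 in 4 of 15, Gclc in 2 of 13 and Cat in both that could test it, while Nfe2l2, Hmox1 and Gclm lie on both sides of 0.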

How the data were processed

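RNA was from islets of 1 pool, with 2 libraries a group (TruSeq RNA kit v2, which does not mark strand). The authors deposited RPKM values per RefSeq transcript and lncRNA for the 4 libraries, and the submitters' processing notes name STAR, bedtools, DESeq and mm9, without versions. Strand use and the counted length are not stated for these libraries. Depth was recovered from the steps of low values over genomic spans of GENCODE vM1 models (NCBI build 37), known for 87.3% of entries, and reads rebuilt from it are estimates.

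Repeated identical entries of a gene were dropped, which took 33923 entries to 28047. Log2(RPKM + 0.5) was compared by limma 3.58.1 (R 4.3.3; variance trend, empirical Bayes, Benjamini-Hochberg adjustment at 0.05, no block) wherever the mean reached 1 RPKM. Intervals are 95% intervals from the same fit. Exact permutation tests and the other steps used scipy 1.17.1, numpy 2.4.6 and pandas 2.3.3 under Python 3.11.15, and plots used matplotlib 3.10.9. The test was also tried on simulated libraries drawn with the means and residual spread of these data. Few transcripts were changed there and noise was drawn independently, unlike in these data, so this was only a check of the code.

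The members and lists were chosen with earlier results of these data known. Named were all members, up to 3 rises and 3 falls called in each list, and Keap1, Bach1, Mafg, Mafk, Maff, Slc7a11, Gsr, Txn1, Prdx1 and Gpx1. Promoter motifs were searched in RefSeq windows on GRCm38.p6, with no coordinates converted between builds. Alternatives changed the trend, scaling, filter, added value, replicate block, Txnrd1 entry and libraries used. Voom on rebuilt reads with a mean of at least 20 and the ratio of mean RPKM were chosen after seeing the data. All columns of sample values were used.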

Additional observations from a re-analysis of the deposited data

How the results depend on the processing

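The number of members called was 1, and became 3 after quantile normalization and after median centring (Gclc, Srxn1 and Txnrd1), 3 by voom on rebuilt reads (Srxn1, Txnrd1 and Cat) and 2 with the replicate number as a block, while leaving out single libraries gave 0 to 1. Over all transcripts, quantile normalization called 3730 (47.4%) and centring 3765 (47.9%), against 2628 (33.4%) in the main fit. With no minimum RPKM the count of members stayed at 1, but the gene was Cat and not Srxn1. The 2628 transcripts called became 4067 with the block and 7369 of 17463 by voom, and 1825 to 2579 with 1 library left out. The 27 genes called in the pathway lists became 41 after centring and 53 of 115 by voom. The cause of these moves was not tested, beyond voom testing more and lower genes. Replicate numbers came with a correlation of 0.31 between deviations of same-numbered libraries, and with 1 pool and 2 pairs they were not taken as pairs. With the block, 51.7% of all transcripts were called. Txnrd1 was then called (adjusted p = 0.0259), and Srxn1 kept its call (adjusted p = 0.0220). The signs of the uncalled Nfe2l2, Hmox1 and Gclm depended on the scaling or on 1 library, and Sod1 and Sod2 stayed below 0 and uncalled in all 13 alternatives. Quantile normalization and centring moved the median of all transcripts from -0.11 to -0.04 and -0.03. With 2 libraries a group from 1 pool, a difference of the size seen in Sod2 did not pass the test over all transcripts.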
